A study of Mus musculus with 12 samples.

Results

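Peaks of DNA methylation and hydroxymethylation near almost silent genes were described in the 3 cell types of the embryonic mouse cortex that lead from neural stem cells to neurons. A peak was taken when the expression values listed for its nearest gene in PP, DP and neurons were all below 10, and these expression values therefore chose the peaks. The rule took 5953 of 55085 5mC peaks (10.8%), with 1614 gene symbols, and 5138 of 47478 5hmC peaks (10.8%), with 1486 symbols. Over both marks these were 11091 peaks with 1883 symbols, of which 1217 had peaks of both marks.

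The cells were sorted at E14.5, at mid-corticogenesis, from the cortex of embryos that carried 1 Btg2-RFP and 1 Tubb3-GFP reporter allele, so that all cell types shared this genotype. PP were the neuronal stem cells (Btg2-/Tubb3-, without RFP and GFP), DP the neurogenic progenitors (Btg2+/Tubb3-, with RFP and without GFP) and neurons the Tubb3+ cells (with GFP, whatever their RFP). PP were thus defined by the lack of both reporters, which any cell without them shares. The 12 deposited samples were 1 immunoprecipitated and 1 input sample per cell type and mark. The study describes independent biological replicates of each cell type, which these labels do not tell apart. The DNA of each cell type was tagged, mixed and pulled down in 1 tube with antibodies against 5mC (MeDIP) or 5hmC (hMeDIP). The input was not treated with antibody.

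The level of a peak is the authors' mean log2 normalised read level over their replicates in 1 cell type. The tables list no replicate values and no read counts, so that the depth behind a peak is unknown, no replicate error can be given and no difference below was tested. A change is the difference of mean log2 levels between successive cell types minus the median difference over all peaks of the mark, and a peak is counted as lower or higher when it differed by at least 1.5-fold. The medians subtracted were -0.00396 for 5mC and -0.00346 for 5hmC from PP to DP, and -0.18 for 5mC and -0.02 for 5hmC from DP to neurons.

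5mC is laid down on cytosines, mostly in CpG dinucleotides, by DNA methyltransferases and is found over most of the mammalian genome outside CpG-rich promoters. TET enzymes oxidise it to 5hmC, which is abundant in brain, accumulates in neurons and lies largely in gene bodies and enhancers. MeDIP and hMeDIP recover fragments with either mark, and their signal depends on how many marked cytosines a fragment holds.

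The expression listed for the nearest gene had a median over the 5mC peaks of 3.3, 2.6 and 2.8 (PP, DP, neurons), against 475.4, 497.4 and 503.6 over all 5mC peaks, on a scale whose unit is not given in the sources used here. For the 5hmC peaks the medians were 3.2, 2.7 and 2.9, against 411.5, 461.4 and 503.65. The highest genes inside the rule were 4921507L20Rik, listed at 9.9, 8.8 and 6 in the order PP, DP and neurons, and Atp8b4, listed at 5.9, 6.4 and 9.9. The lowest outside it were Cmtm5, at 10, 9.5 and 0, and Des, at 10, 1 and 0.3. The listed expression of marker genes followed the sort: Sox2 went from 16755.4 in PP to 1651.9 in neurons, Eomes was highest in DP at 50496.7, and Tubb3 was highest in neurons at 105657. Of the 18 markers of other cells that the sort could hold, 13 were listed, with values from 4.8 for P2ry12 of microglia in neurons to 3961 for Dlx1 of interneurons in neurons, and their part in the results was not tested.

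A promoter, taken as 250 bases before to 50 after a gene's start, was listed by RefSeq for the nearest gene of 2221 of the 5mC and 1885 of the 5hmC peaks, and promoters of other genes are not counted here. Among these, 31 5mC peaks (1.40%) at 31 genes and 31 5hmC peaks (1.64%) at 31 genes overlapped the promoter, against 0.432% and 0.667% of all peaks whose nearest gene had one listed. Peaks of both marks lay there at 7 genes. These 7 promoters are shown because peaks of both marks reach the regulatory start of an almost silent gene there. They were picked by this overlap after the peaks were seen. The overlap was 9 bp for the 5hmC peak of Syce1, 15 bp for the 5mC peak of Kiss1 and at least 43 bp for the others. A level is that of the whole peak, of which a part can lie outside the promoter. The sequences come from RefSeq on GRCm38.p6, the assembly of mm10, are written 5′ to 3′ on the gene's strand, and have each CG in capitals. CG reads the same on both strands, and 94.6% of the 32851 promoters of this length in the RefSeq table hold at least 1, with a median of 7. The table held a promoter for 38.5% of the symbols near these peaks and for 66.4% of the protein-coding ones. For protein-coding genes whose highest listed value was 10 to 100, 100 to 1000 or 1000 and above it held one for 69.0%, 69.0% and 73.9%. The median CG count of the listed protein-coding promoters was 6 below 10, against 9, 18 and 23 in these classes. Genes without a listed promoter are missing from these medians, and the difference was not tested.

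The Clnk promoter is at chr5:38876644-38876943 on the minus strand, Htr1d at chr4:136423274-136423573 on the plus strand, Igfbp6 at chr15:102143936-102144235 on the plus strand, and Kiss1 at chr1:133326962-133327261 on the plus strand. Syce1 is at chr7:140787805-140788104 on the minus strand, Tm4sf19 at chr16:32400256-32400555 on the plus strand and Xlr3c at chrX:73265341-73265640 on the minus strand.
Clnk: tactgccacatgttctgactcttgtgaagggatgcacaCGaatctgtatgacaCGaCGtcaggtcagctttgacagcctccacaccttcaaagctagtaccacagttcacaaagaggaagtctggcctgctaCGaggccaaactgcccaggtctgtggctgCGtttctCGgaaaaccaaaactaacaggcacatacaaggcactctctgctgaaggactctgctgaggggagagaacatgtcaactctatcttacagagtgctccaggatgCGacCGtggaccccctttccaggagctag
Htr1d: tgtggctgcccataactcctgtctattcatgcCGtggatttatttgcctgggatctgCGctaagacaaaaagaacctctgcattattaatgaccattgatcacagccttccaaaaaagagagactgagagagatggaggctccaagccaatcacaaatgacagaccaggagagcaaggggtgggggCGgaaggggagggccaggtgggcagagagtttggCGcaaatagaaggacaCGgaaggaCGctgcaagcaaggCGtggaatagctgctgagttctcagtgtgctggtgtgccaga
Igfbp6: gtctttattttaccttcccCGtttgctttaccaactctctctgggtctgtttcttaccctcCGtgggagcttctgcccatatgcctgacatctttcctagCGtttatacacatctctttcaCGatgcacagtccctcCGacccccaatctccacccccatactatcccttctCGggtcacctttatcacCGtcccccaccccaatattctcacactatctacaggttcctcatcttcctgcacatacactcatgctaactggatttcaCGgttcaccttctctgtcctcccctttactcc
Kiss1: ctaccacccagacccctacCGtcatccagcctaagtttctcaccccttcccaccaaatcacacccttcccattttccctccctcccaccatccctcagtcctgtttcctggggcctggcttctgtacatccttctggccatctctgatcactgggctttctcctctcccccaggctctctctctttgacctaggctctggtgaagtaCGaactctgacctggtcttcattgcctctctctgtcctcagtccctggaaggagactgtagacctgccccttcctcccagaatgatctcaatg
Syce1: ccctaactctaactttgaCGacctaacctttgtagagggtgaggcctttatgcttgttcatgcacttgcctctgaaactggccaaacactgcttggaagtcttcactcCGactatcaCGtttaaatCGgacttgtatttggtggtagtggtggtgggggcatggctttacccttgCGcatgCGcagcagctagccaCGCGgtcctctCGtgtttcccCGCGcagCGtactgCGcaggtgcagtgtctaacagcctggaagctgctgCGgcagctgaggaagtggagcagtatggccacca
Tm4sf19: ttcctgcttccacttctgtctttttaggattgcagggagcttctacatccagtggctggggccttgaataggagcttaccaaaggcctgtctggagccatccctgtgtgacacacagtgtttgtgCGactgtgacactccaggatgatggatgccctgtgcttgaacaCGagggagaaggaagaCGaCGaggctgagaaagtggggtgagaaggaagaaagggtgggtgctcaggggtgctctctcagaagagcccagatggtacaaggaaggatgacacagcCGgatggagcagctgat
Xlr3c: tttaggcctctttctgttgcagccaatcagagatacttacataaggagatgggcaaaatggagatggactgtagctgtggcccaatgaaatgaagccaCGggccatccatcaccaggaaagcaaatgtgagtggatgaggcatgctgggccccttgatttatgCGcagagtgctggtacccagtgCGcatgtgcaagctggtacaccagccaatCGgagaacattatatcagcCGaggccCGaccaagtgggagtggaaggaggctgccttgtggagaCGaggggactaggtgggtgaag

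The Clnk promoter, of an adaptor of immune receptor signalling, held 8 CG and showed the widest change of the 7. Its 5hmC peak had a mean log2 level of 0.94, 3.31 and 4.81 (PP, DP, neurons), while the 5mC peak had 5.78, 5.87 and 4.74. The 5hmC level was thus lowest in PP and highest in neurons, the 5mC level was lowest in neurons, and the listed expression of Clnk was 0.3, 8 and 4.1. These centred changes were 2.37 and 1.52 for 5hmC, and 0.09 and -0.95 for 5mC, in the steps to DP and to neurons. A PP level below 2 was listed for 1.99% of all 5hmC peaks, and the lowest was -0.05. The size of the 5hmC change from PP thus depends on a value near this floor.

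The other promoters varied less. Htr1d, a serotonin receptor gene, had 5mC levels of 4.52, 4.21 and 3.77 and 5hmC levels of 4.14, 4.01 and 4.49, over a promoter with 7 CG. Tm4sf19, of a transmembrane protein, had 5mC levels of 4.41, 4.04 and 3.39 with 5hmC at 4.81, 4.82 and 4.74. Neither gene passed 1.5-fold in a single step, but the centred 5mC change of Tm4sf19 over both steps, from PP to neurons, was -0.85, past 1.5-fold.

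Igfbp6, of a binding protein for insulin-like growth factors, carried more 5hmC signal in PP than in neurons, with 6.06, 5.86 and 5.72, and 5mC at 4.25, 4.18 and 4.61. Its centred 5mC change from DP to neurons, 0.61, passed 1.5-fold. Syce1, of the synaptonemal complex of meiosis, had the most CG of the 7 promoters, 14, with 5mC at 5.84, 5.68 and 5.74 and 5hmC at 4.35, 4.05 and 4.61. Kiss1, the gene of the neuropeptide kisspeptin that acts in puberty, had the fewest, 2, with 5mC at 5.70, 5.77 and 5.38 and 5hmC at 5.33, 5.26 and 5.23. However, the 5hmC peak of Syce1 and the 5mC peak of Kiss1 lay mostly outside the promoter. At Xlr3c, a gene of an X-linked lymphocyte-regulated family, both marks stayed within a narrow range, with 5mC from 6.66 to 6.79 and 5hmC from 5.27 to 5.36. Levels of the 2 marks come from different pull-downs, so a 5mC value and a 5hmC value are not on a common scale.

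**Figure D1:**
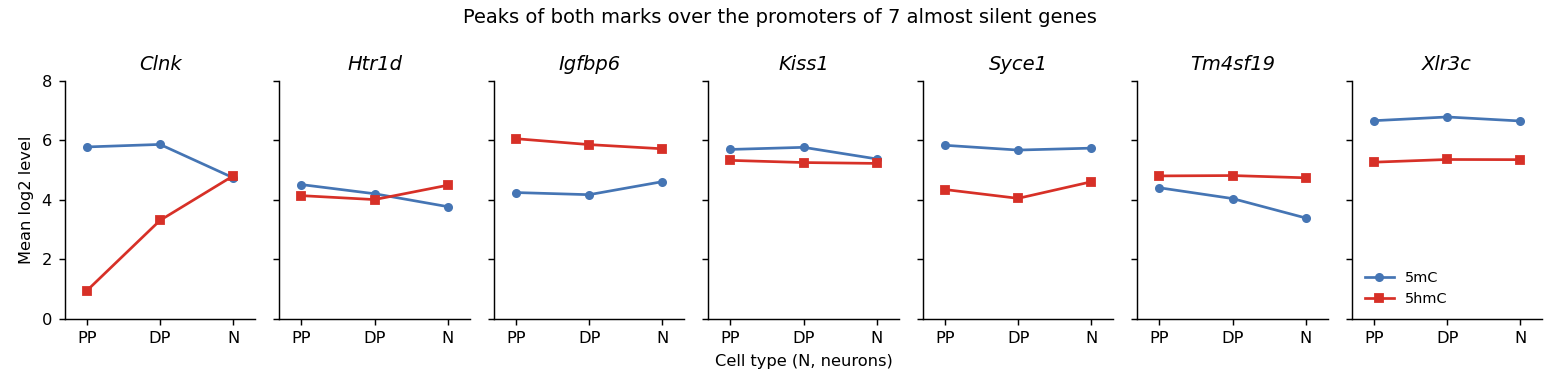
Mean log2 level (vertical axis) of the 5mC peak (circles) and the 5hmC peak (squares) that overlap the promoters of 7 almost silent genes in PP, DP and neurons (N). Points are the authors' means, without an error since no replicate values are listed. Clnk goes from 0.94, a value near the floor of the PP levels, to 4.81 in 5hmC, and the lines of the other genes span less.

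Away from promoters, the peaks near almost silent genes lay less often inside their nearest gene than all peaks of the mark did. Inside were 1241 of the 5mC peaks (20.8%), against 40.2% of all 5mC peaks, and 957 of the 5hmC peaks (18.6%), against 36.2%. The rest were mostly upstream, 46.7% of the 5mC and 47.1% of the 5hmC peaks, against 39.5% and 42.1%, or downstream, 30.9% and 33.8%, against 19.7% and 21.4%. The median distance from peak to start was 17566 bp for 5mC, against 20385 bp over all peaks, and 23806 bp for 5hmC, against 27216 bp. Within 2 kb of the start were 585 of the 5mC peaks (9.83%, against 6.14%) and 401 of the 5hmC peaks (7.80%, against 6.62%). The start given in the tables, which need not have a promoter listed by RefSeq, was overlapped by 71 of the 5mC peaks (1.19%, against 0.467%) and by 17 of the 5hmC peaks (0.331%, against 0.213%). Peak widths did not set them apart, at a median of 144 bp for 5mC, as over all peaks, and 163 bp for 5hmC, against 164 bp.

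**Figure D2:**
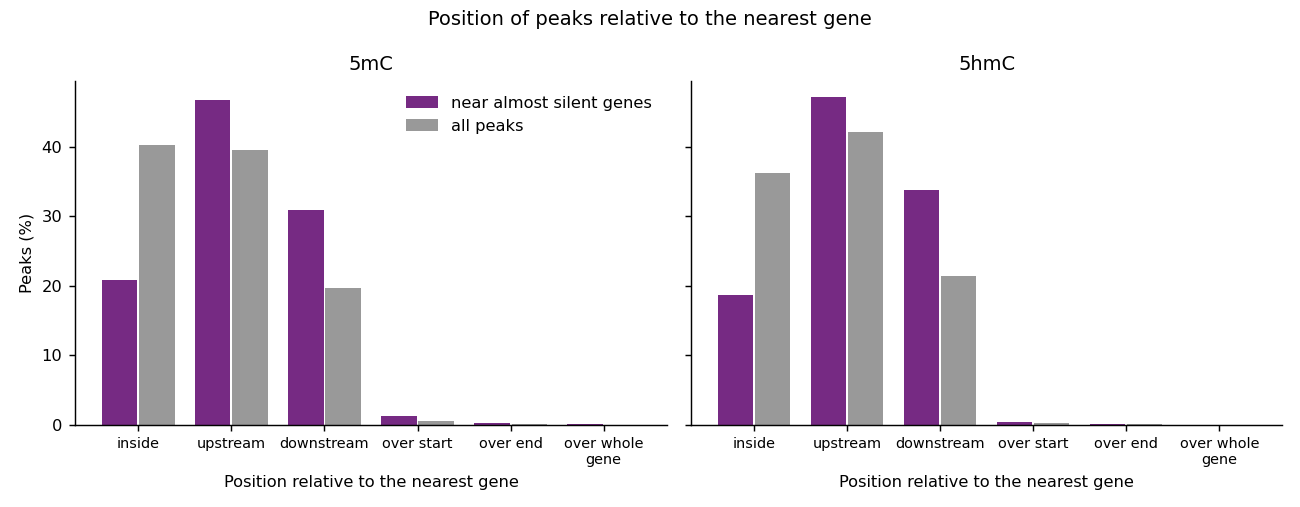
Percentage of peaks (vertical axis) in each position relative to the nearest gene (horizontal axis), for the peaks near almost silent genes (purple) and for all peaks of the mark (grey). Inside the gene lie 20.8% of the 5mC and 18.6% of the 5hmC peaks near almost silent genes, against 40.2% and 36.2% of all peaks.

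Many of the nearest genes were not protein coding. By RefSeq type 45.0% of the 5mC and 41.6% of the 5hmC peaks had a protein-coding nearest gene, against 80.5% and 78.8% of all peaks. Pseudogenes were nearest to 14.7% and 17.4%, against 6.85% and 8.70% of all peaks. Long non-coding RNA genes were nearest to 10.9% and 12.1%, against 4.14% and 4.55%, and small RNA genes to 10.2% and 9.40%, against 1.98% and 1.78%. Of the symbols, 1274 of 1614 for 5mC and 1179 of 1486 for 5hmC were matched, and the unmatched ones held 19.1% and 19.4% of the peaks, against 6.32% and 6.003% of all.

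The nearest gene was often not the gene that held the peak. By the RefSeq bodies of protein-coding genes, 1687 of the 11091 peaks lay within their own nearest gene. The midpoint of 1568 of the 5mC peaks (26.3%) and 1201 of the 5hmC peaks (23.4%) lay within a protein-coding gene whose own listed expression reached 1000 in at least 1 cell type, less often than the 37.7% and 33.3% of all peaks, and these 2769 peaks were spread over 476 such genes. Within a protein-coding gene below 10, which the rule favours, lay 989 (16.6%) and 765 (14.9%), against 2.14% and 1.86% of all. In no protein-coding gene lay 2137 (35.9%) and 2293 (44.6%), against 33.6% and 43.1%. Where the bodies of several genes held the midpoint, the gene with the highest listed expression was taken, also over a silent nearest gene. The split by holding gene, like that by gene type, was chosen after the peaks were seen.

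Some symbols had all their peaks within 1 such host gene. Foxp1, a forkhead transcription factor of the brain listed at 2439.9, 2694.5 and 4360.5, held all 59 peaks of RP23-333F8.1, and Atrnl1, listed at 2043.8, 3122.1 and 10302.1, held all 42 peaks of AC140469.1. Cux2, a homeodomain factor of upper-layer neurons and their progenitors listed at 1807.8, 5177.6 and 13213, held 31 peaks, all near Gm15637. In the 19 of them that were 5hmC peaks the median level was 3.82, 4.46 and 5.06 (PP, DP, neurons), and 9 were higher in the step to DP and 10 in that to neurons, where 11.2% and 16.5% of all 5hmC peaks were. Celf4, an RNA-binding protein of neurons listed at 1126.2, 1211.2 and 11122.5, held 21 5hmC peaks with medians of 4.54, 4.92 and 5.64, and 9 5mC peaks with medians of 5.21, 4.94 and 4.08. Csmd2, listed at 7205.2, 4321.5 and 3538.1, held 20 5hmC peaks with medians of 4.81, 4.90 and 4.73, of which 1 was higher from DP to neurons. Of the 303 symbols with at least 10 peaks over both marks, 69 had all of them within 1 other protein-coding gene and 99 had none in another one.

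The levels of the peaks near almost silent genes lay close to those of all peaks. In a sorted population more cells with the mark and more marked cytosines per cell cannot be told apart in such a level. For 5mC their median level was 5.02, 5.01 and 4.83 (PP, DP, neurons), against 5.06, 5.05 and 4.87 over all 5mC peaks. For 5hmC it was 4.71, 4.70 and 4.77, against 4.72, 4.71 and 4.75. Averaged over cell types the median was 4.92 for 5mC, against 4.96 to 4.98 in the classes of higher expression, and 4.67 for 5hmC, against 4.66 to 4.69. The middle 90% of the 5mC peaks began at 3.94, 3.89 and 3.43 (PP, DP, neurons), against 3.98, 3.91 and 3.50 over all 5mC peaks. That of the 5hmC peaks began at 2.90, 3.57 and 3.82, against 2.91, 3.55 and 3.82. The low end was thus lowest in neurons for 5mC and in PP for 5hmC, as it was over all peaks. A level below 2 was listed for 43 of the 5mC peaks in neurons (0.722%, against 0.517% of all) and for 0 in PP. It was listed for 97 of the 5hmC peaks in PP (1.89%, against 1.99% of all) and for 1 in neurons.

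From PP to DP, 352 of the 5mC peaks near almost silent genes (5.91%) were at least 1.5-fold lower, where 5.44% of all 5mC peaks were, and 270 (4.54%) were higher, where 4.6% were. From DP to neurons 590 (9.91%) were lower, where 9.36% of all 5mC peaks were, and 351 (5.90%) were higher, where 5.12% were. Without the centring the second step gave 15.98% lower and 2.50% higher, against 15.5% and 2.26% over all peaks. The shares lie near the background in every case, and the losses outnumber the gains in both transitions.

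For 5hmC the gains outnumbered the losses. From PP to DP, 568 of the 5hmC peaks (11.1%) were higher, where 11.2% of all 5hmC peaks were, and 228 (4.44%) were lower, where 4.68% were. From DP to neurons 851 (16.6%) were higher, where 16.5% of all were, and 354 (6.89%) were lower, where 7.07% were. These shares were again near the background. With only the highest peak of each symbol they fell to 5.38% higher from PP to DP and 7.60% higher from DP to neurons, against 5.43% and 8.22% of all symbols. This choice selects on level and also counts each symbol once, and the part of each in the fall cannot be told apart.

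Across the classes of expression the shares differed little. From DP to neurons the 5hmC gains and the 5mC losses did not run in one direction. Near genes whose highest value was 10 to 100, 14.6% of the 5hmC peaks were higher from DP to neurons, and near genes at 100 to 1000 the share was 14.7%. Near genes at 1000 and above it was 17.98%, so that the peaks near almost silent genes, at 16.6%, lay between the classes. For the 5mC losses of the same step the shares were 8.69%, 8.81% and 9.75% in these classes, below the 9.91% near almost silent genes. The 5mC gains of this step did run in one direction, from 5.90% near almost silent genes to 5.60%, 5.19% and 4.74% in these classes. This small difference was not tested.

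**Figure D3:**
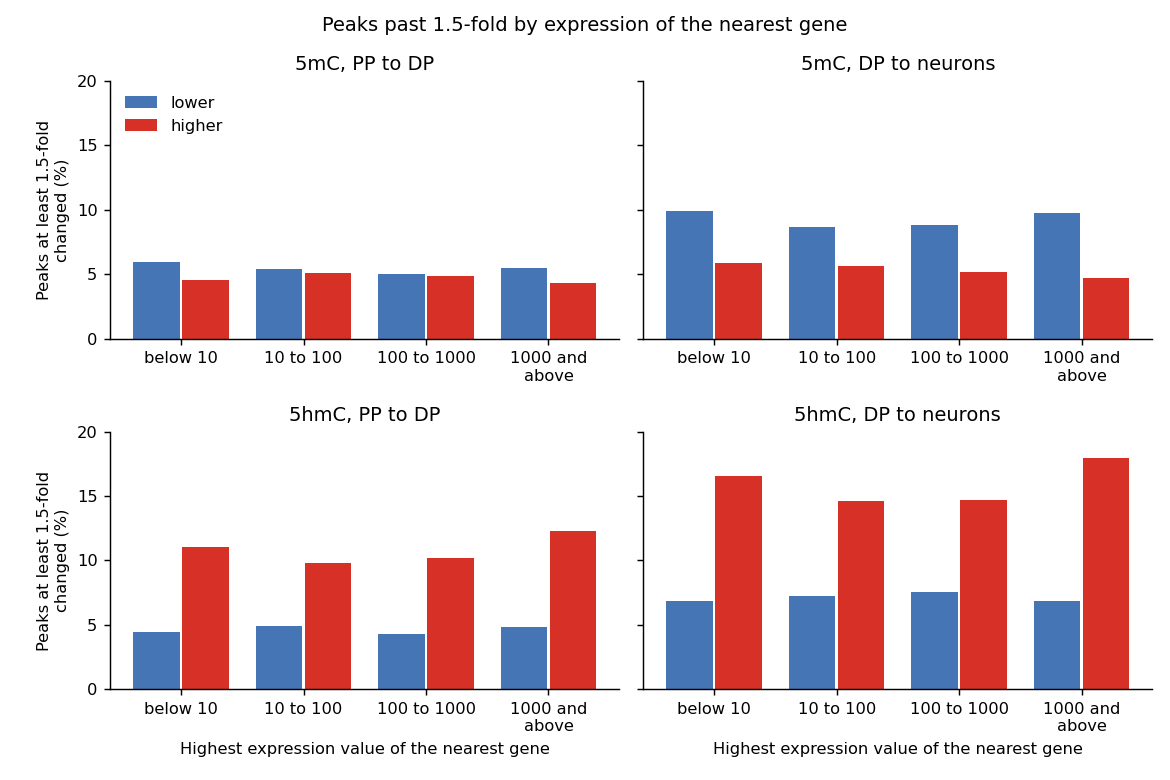
Percentage of peaks at least 1.5-fold lower (blue) or higher (red) after centring (vertical axis), by the highest expression value listed for the nearest gene (horizontal axis), for each mark and transition. Bars are counts over peaks and carry no error. The class below 10 has 16.6% of its 5hmC peaks higher from DP to neurons, against 14.6%, 14.7% and 17.98% in the others.

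The peaks past 1.5-fold had levels close to those of the peaks past it over all genes, and a low start or end follows in part from choosing them by their change. The 568 5hmC peaks that were higher from PP to DP had a median of 3.32, 4.33 and 4.88 (PP, DP, neurons), against 3.33, 4.37 and 4.82 for all 5hmC peaks that were higher in this step. The 851 that were higher from DP to neurons had 3.70, 3.92 and 4.99, against 3.72, 3.94 and 4.95. The 590 5mC peaks that were lower from DP to neurons had medians of 4.65, 4.79 and 3.64, against 4.65, 4.78 and 3.69 for all 5mC peaks lower in it, and the 352 that were lower from PP to DP had 4.75, 3.94 and 4.07, against 4.75, 3.94 and 4.12. Of the 5hmC peaks, 294 (5.72%) were higher in both transitions, against 5.81% of all 5hmC peaks, while 41 of the 5mC peaks (0.689%) were lower in both, against 0.708%. Going lower and then higher was listed for 126 of the 5mC peaks (2.12%, against 1.68%), and 4631 (77.8%, against 79.2%) passed 1.5-fold in neither transition.

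The shares differed with the gene that held the peak. Of the 1201 5hmC peaks within a protein-coding gene at 1000 and above, 303 (25.2%) were higher from DP to neurons, against 22.8% of all 15828 5hmC peaks within such genes. Of the 389 within a gene at 10 to 1000, 77 (19.8%) were higher, against 15.9% of all. Of the 765 within a gene below 10, 89 (11.6%) were higher, against 12.2% of all, and of the 2293 in no protein-coding gene 307 (13.4%), against 11.9% of all peaks of that kind. For 5mC the losses from DP to neurons had the same highest class, with 211 of 1568 (13.5%) in a gene at 1000 and above, against 10.4% of all such peaks, and 59 of 534 (11.0%) in a gene at 10 to 1000, against 8.50%. In a gene below 10 they were 74 of 989 (7.48%), against 7.38%, and in none 186 of 2137 (8.70%), against 8.92%. From PP to DP the 5hmC peaks in a gene at 1000 and above were higher in 15.9%, against 14.8% of all such peaks, and those in a gene below 10 in 8.63%, against 8.96%. The shares thus moved with the holding gene among all peaks too. These are shares over peaks, which share genes and libraries, and were not tested.

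**Figure D4:**
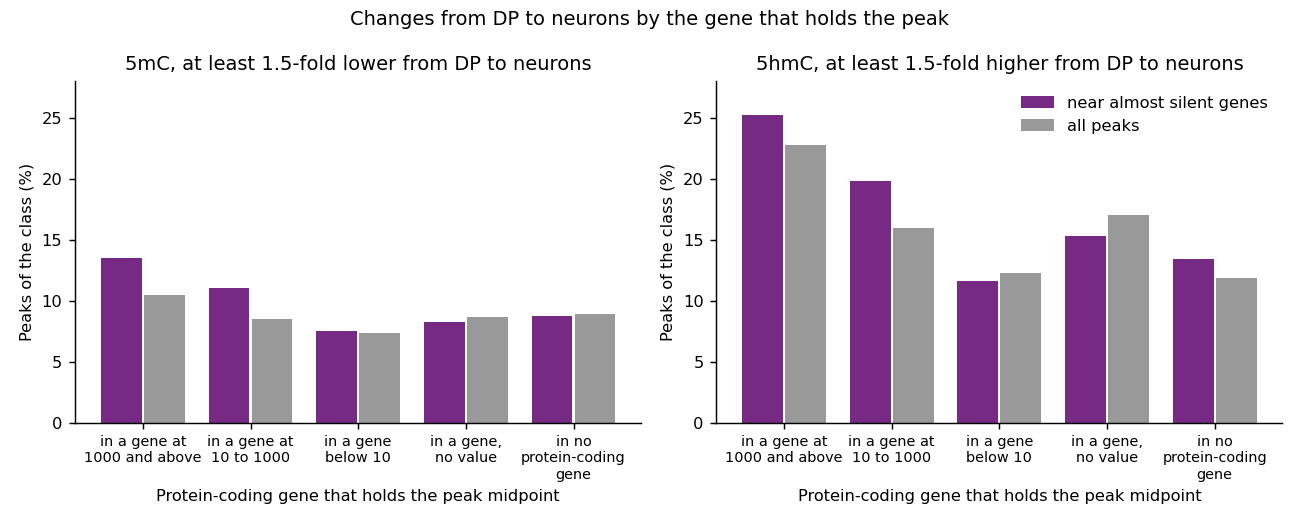
Percentage of the peaks of a class (vertical axis) that were at least 1.5-fold lower in 5mC (left) or higher in 5hmC (right) from DP to neurons, by the protein-coding gene that holds the peak midpoint (horizontal axis), near almost silent genes (purple) and over all peaks (grey). In a gene at 1000 and above 25.2% of the purple 5hmC peaks were higher, and in a gene below 10 it was 11.6%.

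By the type of the nearest gene the shares from DP to neurons also differed. The 5hmC share that was higher was 23.0% near small RNA genes (111 of 483), 21.9% near long non-coding RNA genes (136 of 621) and 20.5% near unmatched symbols (204 of 996). Near protein-coding genes it was 13.3% (284 of 2138) and near pseudogenes 12.99% (116 of 893). Over all 5hmC peaks of the same types the shares were 22.2%, 21.2%, 19.0%, 16.5% and 11.0%. The 5mC losses were 13.3% near unmatched symbols, against 11.2% of all such 5mC peaks, 11.6% near long non-coding RNA genes, against 12.1%, and 11.2% near small RNA genes, against 9.80%. They were 9.74% near pseudogenes, against 8.16%, 7.87% near protein-coding genes, against 9.17%, and 0 of 10 near other types.

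With distance from the start the 5hmC gains from DP to neurons went from 15.5% of the peaks under 2 kb to 19.5% at 50 to 100 kb, and the peaks over 100 kb away had the lowest share, 11.5%. Over all 5hmC peaks these shares were 16.1%, 18.2% and 13.3%. The 5mC losses of this step were 8.38% under 2 kb and 12.7% at 50 to 100 kb, against 8.22% and 11.4% over all.

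On the X chromosome the direction of the 5hmC changes was the other way. Of the 162 5hmC peaks near almost silent X-linked genes, 22 (13.6%) were lower and 2 (1.23%) higher from PP to DP, and 17 (10.49%) were lower and 7 (4.32%) higher from DP to neurons. The other 847 5hmC peaks of the X chromosome had 7.32% lower and 2.36% higher in the first step and 7.20% and 4.01% in the second, so the direction was shared. The median 5hmC level of the 162 peaks was 4.76, 4.65 and 4.50 (PP, DP, neurons). On the autosomes the peaks near almost silent genes had 11.4% higher and 4.14% lower from PP to DP, and higher peaks outnumbered lower ones on 19 of 20 chromosomes in both transitions. For 5mC the X chromosome held 100 of the peaks, with 4 lower and 5 higher in the first step and 6 and 9 in the second. The other 699 5mC peaks of the X chromosome had 4.58% lower and 3.86% higher in the first step and 2.15% and 9.44% in the second. Of all 5mC peaks 5.44% were lower and 4.6% higher in the first step, and 9.36% and 5.12% in the second.

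Both marks met at a minority of the peaks. A 5hmC peak overlapped 733 of the 5mC peaks (12.3%, against 12.2% of all), and a 5mC peak overlapped 736 of the 5hmC peaks (14.3%, against 14.2%), with at least 1 shared base. At the 735 overlapping pairs in which both peaks were near almost silent genes, the median 5mC level was 5.23, 5.17 and 4.82 (PP, DP, neurons), and the median 5hmC level was 4.63, 4.71 and 5.11. Over all pairs these medians were 5.21, 5.15 and 4.82 for 5mC and 4.64, 4.75 and 5.06 for 5hmC. The 5mC median was thus lowest and the 5hmC median highest in neurons, as over all pairs. From DP to neurons 251 pairs had higher 5hmC, and at 210 of them (83.7%) the centred 5mC change was below 0, against 82.0% over all pairs. Lower 5mC was found at 175 pairs, and 100 pairs had both, which were 57.1% of the pairs with lower 5mC and 39.8% of those with higher 5hmC. Over all 6727 pairs these shares were 60.3% and 36.9%. From PP to DP 21 pairs had both, 36.2% of those with lower 5mC and 14.3% of those with higher 5hmC, against 41.7% and 15.0% over all pairs. Across the pairs the 2 changes had a Spearman rho of -0.18 in the step to DP and -0.38 in the step to neurons, against -0.17 and -0.37 over all pairs, as a description of peaks that share libraries and sequence.

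The pair with the largest sum of 5hmC gain and 5mC loss from PP to neurons lay 92548 bp upstream of C030013C21Rik, within Myo1d, the gene of an unconventional myosin listed at 129.1, 119.4 and 158.6. Its 5hmC levels were -0.05, 2.15 and 4.52, and its 5mC levels 5.22, 5.38 and 3.45. The value of -0.05 was the lowest in the PP column, shared by 105 5hmC peaks, so that the size of a difference from it depends on this floor. The second pair was 2908 bp upstream of Tex22, a testis gene, within Pacs2, with 5hmC at 0.67, 2.83 and 4.41 and 5mC at 4.77, 4.25 and 2.31. The third lay downstream of C130080G10Rik, with 5hmC at 1.85, 4.27 and 5.85 and 5mC at 5.38, 4.92 and 3.51. The fourth was inside Gm12679, with 5hmC at 2.90, 4.75 and 4.64 and 5mC at 4.79, 4.04 and 0.76, so that its 5hmC was highest in DP. The pairs were picked by their change from PP to neurons, and its direction is no result.

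Single peaks were picked as those with the widest changes, which fixes the direction of the step named. Some touched the lowest value of their column. The 5mC peak with the largest loss from DP to neurons was at chr5:110981104-110981229, nearest to the microRNA gene Mir701 and within Ttc28, a gene listed at 7785, 21598.6 and 77437. Its levels were 6.42, 5.71 and 0.11, the last being the lowest of the neuron column. The next, near Gm16045 within Septin9, had 5.13, 4.23 and 0.11. The largest 5mC losses from PP to DP were near CN725425, with 4.74, 2.15 and 1.38 within Slc2a13, a sugar transporter gene, and inside Col13a1, a collagen gene, with 4.26, 2.10 and 2.24. Neither regained its PP level in neurons.

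The largest 5mC gains from PP to DP were 1237 bp upstream of Pkd1l1, a polycystin family gene, with 2.52, 4.59 and 3.49, and near 4930403N07Rik, with 2.16, 4.08 and 1.99. The former was upstream by the authors' annotation, but its midpoint lay within the RefSeq body of Pkd1l1. From DP to neurons the largest gain was near Tcp10a, with 3.97, 2.996 and 4.47, within Rps6ka2, a gene listed at 1278.5, 2354.9 and 3609.8. The next was near Rtp1, of an olfactory receptor transporting protein, with 3.76, 3.19 and 4.61, within Masp1, listed at 5685.8, 9949.6 and 7765. The peaks near Pkd1l1 and 4930403N07Rik had their highest 5mC in DP, and those near Tcp10a and Rtp1 in neurons.

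For 5hmC the largest gains from PP to DP were near Gm15679, with -0.05, 3.80 and 4.93, and Gm15846, within Anapc7, a subunit gene of the anaphase-promoting complex, with -0.05, 3.79 and 4.34. Those from DP to neurons were near Gm5449, with 0.40, 0.52 and 4.62, and AI317395, within Slc16a10, with -0.05, 0.52 and 4.28. These 4 peaks had their highest 5hmC in neurons. The largest losses from PP to DP were near Gm6043, with 4.12, 1.94 and 3.97 within the calcium channel subunit gene Cacna2d3, and Gm15583, with 4.62, 2.87 and 4.07 within Brinp3. Those from DP to neurons were inside 4930448K12Rik, with 3.63, 4.47 and 1.23, and near Gm13401, with 4.57, 5.26 and 3.07. Both of the latter had their highest 5hmC in DP. The peak inside 4930448K12Rik also lay within Pard3b, a gene listed at 1155.5, 1580.9 and 84.5.

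The highest levels did not move past 1.5-fold. The 5mC peak 4271 bp downstream of the start of Gm11668 had 10.35, 10.35 and 10.44. Chit1, the gene of the chitin-degrading enzyme chitotriosidase of macrophages, held the second highest 5mC peak, with 8.96, 8.95 and 8.50, and the highest 5hmC peak, with 8.72, 8.66 and 8.44. All 7 of its 5mC peaks and all 6 of its 5hmC peaks lay inside the gene. Oas2, an interferon-induced antiviral gene, held the second highest 5hmC peak, with 8.29, 8.19 and 7.92.

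Patterning factors of other brain regions or other tissues made up a part of the silent genes. Of the peaks near the listed factors, 68 of 125 5mC peaks (54.4%) and 94 of 162 5hmC peaks (58.0%) were near an almost silent one, with 21 and 18 genes. Their median levels were 4.98, 4.90 and 4.76 for 5mC and 4.93, 4.86 and 4.84 for 5hmC. From PP to DP 9 of the 68 5mC peaks (13.2%) were lower and 2 (2.94%) higher, where 5.44% and 4.6% of all 5mC peaks were, and from DP to neurons 3 were lower and 4 higher, where 9.36% and 5.12% of all were. For 5hmC, 13 of 94 (13.8%) were higher and 4 (4.26%) lower from DP to neurons, where 16.5% and 7.07% of all 5hmC peaks were, and 5 were higher and 4 lower before. No Hox cluster gene was nearest to any peak of either mark.

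Shh, the morphogen of the ventral neural tube and limb bud, was listed at 0.4, 0.3 and 8.6. Its highest 5hmC peak lay at chr5:28731529-28731694, 264511 bp upstream, with 7.49, 7.46 and 7.45, above 99.7% of all 5hmC peaks. Its highest 5mC peak was 6401 bp upstream, with 5.75, 5.82 and 5.58. The 5hmC level of this distant peak hardly varied over the 3 cell types.

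Pax7, a factor of dorsal neural tube and muscle stem cells, had its highest 5hmC peak inside the gene, with 7.38, 7.37 and 7.35, and its highest 5mC peak there too, with 5.79, 5.55 and 5.35. Barx2, a homeobox factor of muscle and epithelia, had a 5hmC peak of 7.61, 7.46 and 7.32 at 78271 bp downstream and a 5mC peak of 6.40, 6.72 and 6.42 inside. Irx2, of the Iroquois homeobox cluster, had 5hmC at 7.15, 7.26 and 7.08 and 5mC at 6.97, 7.23 and 7.31. Each of these 5hmC peaks lay above 99.2% of all 5hmC peaks or higher.

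Irx1 had the most peaks of the list, 12 of 5mC and 17 of 5hmC, none of them inside the gene, and its highest 5hmC peak had 5.95, 6.12 and 6.46. Irx3 had a 5hmC peak of 5.32, 4.90 and 5.51 and a 5mC peak of 6.15, 6.07 and 6.13. The change of this 5hmC peak from DP to neurons was 0.64. Dlx3, a distal-less factor of placenta and skin, also passed 1.5-fold in that step in both marks, with 5hmC at 5.34, 4.95 and 5.69 and 5mC at 4.92, 4.95 and 4.08. Pax2, a factor of kidney and midbrain-hindbrain, had 5mC at 5.29, 4.39 and 4.26, past 1.5-fold from PP to DP, and 5hmC at 6.14, 6.03 and 5.87.

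T, the brachyury factor of mesoderm, had 5mC at 6.99, 7.15 and 6.76 and 5hmC at 5.44, 5.43 and 5.13. Tbx5, a T-box factor of heart and forelimb, had 5mC at 6.16, 6.20 and 5.92 and 5hmC at 5.84, 5.72 and 5.50. Gata6, a factor of endoderm and heart, had 5mC at 6.34, 6.66 and 6.61 and 5hmC at 5.50, 5.52 and 5.10. None of the peaks named for these 3 genes passed 1.5-fold between any 2 cell types.

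Small RNA genes held 606 of the 5mC and 483 of the 5hmC peaks, which were 55.5% and 57.0% of all peaks near such genes. The symbols with the most peaks were of this kind: 7SK, the RNA that holds back transcription elongation, had 109 5mC and 103 5hmC peaks, and U6, an RNA of the spliceosome, had 102 and 93. Each symbol stood for many places, 21 loci on 14 chromosomes for 7SK and 36 loci on 17 chromosomes for U6, counted by chromosome and listed expression values. Copies of such RNAs are nearly identical, so their listed expression is uncertain. U1 had 36 and 29 peaks, and U4 33 and 14.

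Of the 103 5hmC peaks near 7SK loci, 32 were higher and 4 lower from DP to neurons, where 16.5% and 7.07% of all 5hmC peaks were, and the medians were 4.63, 4.70 and 4.99. The 109 5mC peaks there had medians of 5.14, 4.99 and 4.82, with 17 lower and 3 higher in that step, where 9.36% and 5.12% of all 5mC peaks were. Of the 212 peaks near 7SK loci 114 lay within a protein-coding gene at 1000 and above. Near U6 19 of the 93 5hmC peaks were higher and 4 lower from DP to neurons, and 116 of the 195 peaks near U6 lay within such genes. For U1 3 of the 29 5hmC peaks were higher and 3 lower.

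Among microRNA genes, 53 had peaks, 305 in all, and 46 of the genes had a sequence in the RefSeq table. Whether the RNA-seq behind the listed expression measured mature microRNAs is not known here. Low listed values therefore need not mean that these microRNAs are silent. The sequences of the mature RNAs of the gene with the most peaks, of the second, and of the one that shares the seed of the first are shown, with the seed, bases 2 to 8, in capitals. The gene of let-7i-5p lies at chr10:122985698-122985719 on the minus strand, that of miR-26a-5p at chr9:119031811-119031832 on the plus strand, and that of let-7g-5p at chr9:106178846-106178867 on the plus strand.
let-7i-5p: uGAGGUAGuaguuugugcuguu
let-7g-5p: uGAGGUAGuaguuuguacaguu
miR-26a-5p: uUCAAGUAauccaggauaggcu

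The let-7 family is known to promote the exit of neural progenitors from the cell cycle. Mirlet7i, listed at 1.3, 2.2 and 1.8, had 21 5mC and 24 5hmC peaks from 44408 bp upstream to 145777 bp downstream. Within Ppm1h, a phosphatase gene listed at 140.9, 328.9 and 361.2, lay 27 of the 45, within Mon2, a gene of endosome transport listed at 4062.2, 4828.2 and 6823.3, lay 9, and 9 lay in no protein-coding gene. From PP to DP 9 of the 24 5hmC peaks were higher, and from DP to neurons 9, where 11.2% and 16.5% of all 5hmC peaks were, with none lower in either step. The medians were 4.25, 4.58 and 4.95 (PP, DP, neurons).

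The widest 5hmC change near Mirlet7i was 51504 bp downstream, with 0.70, 1.97 and 4.87. At 24728 bp downstream 5hmC was 1.94, 2.63 and 4.50, and at 128404 bp it was 3.39, 4.63 and 6.17. The peak nearest to the microRNA, 1985 bp upstream, had 3.86, 3.78 and 3.87. The gains thus lay at a distance and not at the nearest peak. Of the 5mC peaks, the one 33924 bp upstream had 5.46, 5.32 and 3.65 and the one 56980 bp downstream 4.73, 4.47 and 3.25. Mirlet7g, with the same seed, had 1 peak.

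**Figure D5:**
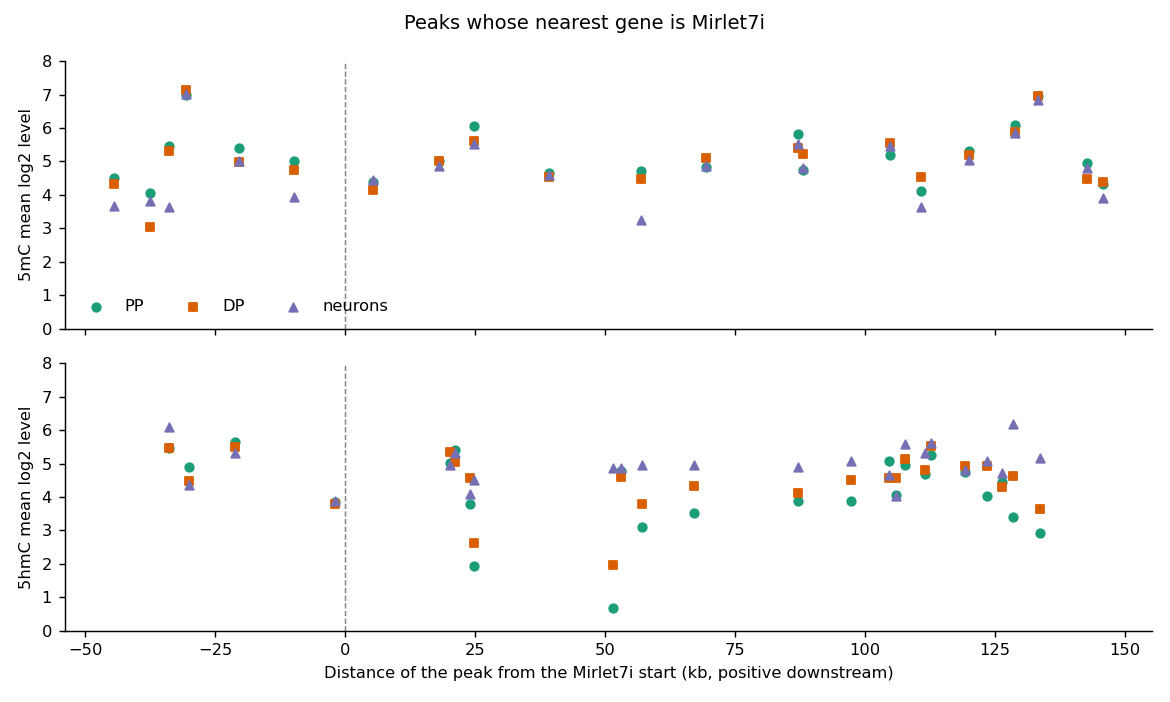
Mean log2 level (vertical axes) of the 21 5mC peaks (top) and the 24 5hmC peaks (bottom) whose nearest gene is Mirlet7i, by distance from its start in kb (horizontal axis, positive downstream, dashed line at the start), in PP (circles), DP (squares) and neurons (triangles). Several 5hmC peaks downstream are lowest in PP, such as the one at 0.70, 1.97 and 4.87.

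Mir26a-1, listed at 9.1, 3.9 and 3.4, had 13 5mC and 10 5hmC peaks, and all 23 lay within Ctdspl, a phosphatase gene listed at 2581.6, 1042.6 and 800.7.

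Immune signalling genes had 142 5mC and 107 5hmC peaks near 45 and 44 silent genes, which were 27.6% and 27.1% of the peaks near the listed immune genes. From DP to neurons 17 of the 142 5mC peaks (11.97%) were higher and 11 (7.75%) lower, where 5.12% and 9.36% of all 5mC peaks were. Of the 107 5hmC peaks 15 (14.0%) were higher and 11 (10.3%) lower, where 16.5% and 7.07% of all were. These are small counts over peaks that share genes, and the difference was not tested. Il1r2, a decoy receptor for interleukin-1, had the most, 13 and 9 peaks, all upstream. Tlr5, the receptor for flagellin, had 11 and 6, and Siglec15, a sialic acid-binding receptor, 9 and 5. Of the 22 Il1r2 peaks 10 lay within Map4k4, listed at 27172.8, 42766.5 and 49481.4. Within Susd4 lay 8 of the 17 Tlr5 peaks, and within Epg5 5 of the 14 Siglec15 peaks.

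Solute carriers had 106 5mC and 78 5hmC peaks, with 11 and 4 of the 5mC peaks lower and higher from DP to neurons, where 9.36% and 5.12% of all were, and 10 and 6 of the 5hmC peaks higher and lower, where 16.5% and 7.07% of all were. Slc28a3, a nucleoside transporter, had 17 and 9, and Slc35f3 14 and 12. G protein-coupled and hormone receptors had 64 and 68 peaks, of which 4 5mC peaks were lower and 4 higher in that step and 6 5hmC peaks higher and 3 lower. Avpr1a, a vasopressin receptor, had 13 5mC peaks, and Gpr65, a proton-sensing receptor, 8 5hmC peaks. The 8.82% of higher 5hmC peaks at the receptors stood beside 16.5% over all 5hmC peaks.

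Smaller groups had few peaks. Collagens and matrix proteases had 30 and 18, with 14 5mC peaks at Col6a6, and cytochrome P450 genes 23 and 18, among them Cyp19a1, the aromatase that makes oestrogens, with 7 5mC peaks, and Cyp26a1, which degrades retinoic acid, with 8 5hmC peaks. Germline and sperm genes had 20 and 12, and muscle genes 17 and 8, of which Myh8, a myosin heavy chain, had 6 5mC peaks. Olfactory and vomeronasal receptors had 12 and 23, with 9 5hmC peaks at Olfr267, and keratins and epidermal genes 12 and 6, with Krt15 at 5 5mC peaks. From DP to neurons 5 of 23 5hmC peaks of the olfactory group and 5 of 23 5mC peaks of the P450 group were lower, where 7.07% and 9.36% of all peaks of the mark were, with 1 higher in each. In the other 4 groups at most 3 peaks of a mark went in either direction in that step.

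Unnamed or predicted genes were the largest group, with 2843 5mC and 2618 5hmC peaks near 797 and 733 symbols. Of these 337 (11.9%) were lower and 157 (5.52%) higher in 5mC from DP to neurons, where 9.36% and 5.12% of all 5mC peaks were, and 465 (17.8%) higher and 190 (7.26%) lower in 5hmC, where 16.5% and 7.07% of all were. The symbol with the most peaks was 4931429P17Rik, with 31 5mC and 35 5hmC peaks, none of them within another protein-coding gene, and 6 of the 5mC peaks were lower from DP to neurons. RP23-333F8.1, which is the symbol within Foxp1, had 8 of its 34 5hmC peaks higher and 1 lower in that step. Gm16391, with 26 5hmC peaks, had 1 lower and 0 higher.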

How the data were processed

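MeDIP and hMeDIP libraries of sorted PP, DP and neurons were sequenced as 75 bp single reads. According to the study's methods and the submitters' processing notes, reads were aligned to mm10 with BWA 0.7.8-r455, peaks were called with SICER 1.1, those found in all replicates were merged, peaks over repeats were left out, and levels were computed with DiffBind. The deposited levels are log2 means per cell type made by the authors over replicates, normalised by TMM. The expression of the nearest gene and the distance to its start were read as scores from the table the authors deposited, the former from their earlier RNA-seq and on an unnamed scale. Further deposited columns hold the authors' own fold changes and p-values for peaks and genes, and none was used. The study gives reads per library, but the tables used here hold no counts, so the depth behind a peak is unknown and precision cannot be given.

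Changes were differences of the mean log2 levels, centred on the median over all peaks of a mark, and counted from 1.5-fold, in Python 3 with pandas. The counting code was run on simulated levels with planted changes well past 1.5-fold and little noise, which checks the code only. With only means per cell type no test was possible, and shares are set beside those over all peaks. Gene bodies and types came from RefSeq on GRCm38.p6, by symbol, with the peak midpoint placed in the bodies and, where bodies overlapped, in that of the highest listed expression. Overlap of marks needed at least 1 bp. The peaks, gene lists and limits were chosen with earlier results of these data known. The gene lists were patterning factors, Hox cluster, immune, solute carrier, G protein-coupled and hormone receptor, cytochrome P450, keratin, collagen, germline, muscle, olfactory, small RNA and unnamed genes. Peaks were named when they were 1 of the 2 with the largest change per mark, transition and direction at a level of at least 4 in 1 cell type, 1 of the 2 highest per mark, or the highest of a patterning gene with at least 5 peaks. Genes were named when among the 5 with most peaks of a mark or the first of their list. Host genes other than these, Mir26a-1, Mirlet7g and the promoters shown were chosen after their values were seen. Sequences of the peaks themselves are not shown here, since no genome was used.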

Additional observations from a re-analysis of the deposited data

How the results depend on the processing

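Over 14 shares and medians, 116 values under other settings were computed, of which 84 stayed within the 95% counting interval of the reported value and 32 did not. Leaving out repeated positions, the X chromosome, peaks below a level of 4 and peaks under 100 bp moved none. Taking 1 peak per symbol, the highest, moved all 14: for 5mC 2.85% lower and 2.11% higher in the step to DP, 4.40% and 4.15% in that to neurons, a median level of 5.63, 13.3% overlapping and 25.9% inside, and for 5hmC 3.63% lower and 5.38% higher, 5.59% and 7.60%, 5.16, 16.02% and 23.8%. Over all symbols so chosen, 3.80% were lower in 5mC and 8.22% higher in 5hmC from DP to neurons. Choosing the highest peak selects on level, and symbols such as 7SK then count once. At 2-fold the 5mC shares were 1.16% lower and 0.672% higher, then 3.71% and 0.840%, and the 5hmC shares 0.487% and 5.02%, then 1.11% and 8.35%, against 3.30% of all 5mC peaks lower and 8.03% of all 5hmC peaks higher from DP to neurons. Without centring the 5mC shares from DP to neurons were 15.98% lower and 2.50% higher. With all 3 values below 5, 19.8% of the 5mC and 17.5% of the 5hmC peaks were inside, 18.1% of the 5hmC peaks were higher from DP to neurons and the median 5hmC level was 4.65, and below 20 the inside shares were 22.6% and 19.9%. Overlap of at least 50% of the shorter peak gave 10.7% and 12.4%. The intervals cover counting of peaks only.

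No paired analysis was possible because the tables hold 1 mean per cell type and no replicate values, and no replicate was left out. The tables give no reads per peak, and levels at the lowest value of a column, 5 of the 5mC peaks in neurons and 8 of the 5hmC peaks in PP, limit the size of the widest changes.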
